A study of Mus musculus with 8 samples.

Results

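The genes described here build and supply the primary cilium: the intraflagellar transport (IFT) trains and their dynein-2 motor, the BBSome coat with its chaperonins, the ARL GTPases of the cilium, the transition zone at its base and 2 proteins of the mother centriole. They are a named list of 50 genes, and all 50 were found by symbol among the 27179 rows of a table of gene counts and passed the filter on low counts, which left 14382 genes. The list was proposed with the comparison of miR-21-KD and VC tumours already known, so that comparison is given for these genes as a description. Where a member is said to be past the threshold of the fit over all genes, that describes its values and is not evidence, and no p is given for it.

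Whole primary tumours of 8 BALB/c mice were sequenced. In 4 of them 4T1.13-miR-21-KD cells had been implanted, and in the other 4 the vector control cells, 4T1.13-VC. 4T1.13 is a metastatic mouse mammary carcinoma line. The miR-21-KD cells carry a lentiviral vector from which the H1 promoter drives a sponge-like RNA against the mature miRNA, and the vector of the VC cells makes a scrambled RNA in its place. Both vectors also carry mCherry and a hygromycin resistance gene, and each line is a pool of selected clones, so line and vector cannot be told apart. The labels give 100000 cells injected into the mammary fat pad and recovery on day 14, when the miR-21-KD tumours were starting to regress. The mice kept their own immune system and stroma, and RNA of host cells was sequenced together with that of the tumour cells.

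A primary cilium is a single antenna that most vertebrate cells grow from the mother centriole when they leave the cell cycle and take down again before division. IFT-B trains pulled by kinesin-2 carry cargo to the tip, IFT-A trains pulled by dynein-2 bring it back, and the BBSome loads membrane proteins for export. The transition zone gates what enters, and vertebrate Hedgehog signalling runs through the structure. Many mammary carcinoma cells are reported to have lost it.

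The sequestered microRNA is shown first, with its seed (bases 2 to 8) in capitals, as given by RefSeq for GRCm38.p6 at chr11:86584120-86584141 on the minus strand.
mmu-miR-21a-5p: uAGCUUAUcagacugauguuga
Its precursor gene, Mir21a, had 0 counts in all 8 tumours, so these libraries carry no reading of the targeted RNA. The match to the seed, ATAAGCT, was searched on the sense strand of the longest annotated 3′ UTR (GENCODE vM21) of each gene. Of the 49 members with such a UTR, 1 held it (2.04%), against 7.75% of 13219 tested genes. The median UTR was shorter in the members, with 564 bases against 1171 bases. The member was Tmem231, a transition zone protein, and its site is shown with the match in capitals.
Tmem231: tatctcctatcATAAGCTagccgctttctt
Tmem231 was among the lower genes of the miR-21-KD tumours (log2 fold change -0.95). A match is a description of the letters and not a binding site.

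The X-box, the palindromic element read by RFX transcription factors, is known from promoters of ciliary genes. It was searched by its consensus on both strands of the RefSeq promoter windows of GRCm38.p6, which run from 250 bases before to 50 bases after the start of a gene. Of the 50 members, 45 had such a window, and Tmem67, Dync2li1, Ift81, Ift80 and Ift122 had none. The X-box was found in 7 of the 45 (15.6%), against 1.75% of all 27025 promoters. Its matches follow, with the element in capitals and each read in the direction of its gene.
Ahi1, chr10:20952560-20952589, plus strand: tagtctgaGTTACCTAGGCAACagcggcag
B9d2, chr7:25680788-25680817, plus strand: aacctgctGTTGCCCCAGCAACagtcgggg
Bbs1, chr19:4906605-4906634, minus strand: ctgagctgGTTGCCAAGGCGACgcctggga
Ift57, chr16:49699199-49699228, plus strand: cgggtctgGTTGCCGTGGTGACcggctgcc
Ift57, chr16:49699226-49699255, plus strand: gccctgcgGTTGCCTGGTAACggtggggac
Tctn1, chr5:122264411-122264440, minus strand: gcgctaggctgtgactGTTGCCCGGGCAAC
Tctn2, chr5:124598679-124598708, plus strand: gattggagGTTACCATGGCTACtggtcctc
Tctn3, chr19:40612350-40612379, minus strand: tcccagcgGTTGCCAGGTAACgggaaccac
The half-site GTTGCC, which is part of many X-boxes, was in 21 of the 45 promoters (46.7%), against 14.1% of all promoters. All 7 genes with an X-box were among these 21. Among the members the X-box was in 4 of the 27 promoters of genes that were lower in miR-21-KD tumours and in 3 of the 18 others, and the half-site was in 11 of 27 and 10 of 18. E2F motifs, known from cell cycle promoters, and an NRF1 motif were searched too. The E2F motif TTTCCCGC was in 0 of 45 promoters (1.24% of all and 2.27% of 11032 promoters of tested genes), the E2F motif TTTGGCGC in 2 of 45 (4.44% against 0.585% and 1.04%) and the palindromic NRF1 motif in 0 of 45 (1.07% and 2.15%), again on both strands.

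Between 12134849 and 13592695 reads were counted on genes in a tumour. Levels are given as CPM, counts scaled by the size of the library and the TMM factor of edgeR, and a count of 0 allows up to 3 counts, which is 0.221 to 0.245 CPM and covers counting error only. Members had between 32 and 963 counts in a tumour, so none was near this limit. On the first principal component (67.5% of the variance) the 4 VC tumours lay between -78.4 and -23.3 and the 4 miR-21-KD tumours between 7.13 and 76.6. MiR-21-KD tumour 2 (7.13) lay nearest to the VC tumours. It was nearer to VC tumour 1 (-23.3) than to miR-21-KD tumour 3 (45.6), the next of its own group. Nothing in the labels says that the tumours share a batch.

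All members were read at moderate depth. Their means in VC tumours ran from 3.08 to 63.3 CPM with a median of 19.8 CPM, and in miR-21-KD tumours from 3.86 to 44.3 CPM with a median of 13.6 CPM. Per kilobase of annotated exon, the median member had 4.51 CPM in VC tumours, against 6.30 CPM over 13898 tested genes. On this scale Ift43 (22.3 CPM per kilobase), Ift20 (17.6) and Ift52 (17.3) were highest and Mks1 (0.762), Dync2h1 (0.956) and Rpgrip1l (0.978) lowest. The SD over the 4 tumours was under 20% of the mean in 46 members for VC and in 34 for miR-21-KD.

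Most of the 50 genes were lower with miR-21 sequestered. With an adjusted p under 0.05 in edgeR's quasi-likelihood test over all genes, 31 were lower (62.0%), against 19.5% of all tested genes, 1 was higher, against 19.6%, and 18 were on neither side (32 called in either direction, against 39.1%). In 31 genes every miR-21-KD tumour was below every VC tumour, against 18.9% of all tested genes, and in 0 genes was every miR-21-KD tumour above, against 16.3%. These 31 were not all the same genes: Ift88 and Cc2d2a were called lower with overlapping groups, and Mkks and Ofd1 were apart without being called. Since the list was chosen with this comparison known, nothing is read from these counts. Of all 50, 43 had a log2 fold change below 0, against 51.2% of all tested genes. The median was -0.57, against -0.01 over all tested genes, with a range from -1.57 to 0.69 and standard errors of 0.07 to 0.27. The fold was at least 2 for 7 of the lower genes (4.24% of all tested genes): Ift80, Ttc8, Tctn2, B9d1, Wdr34, Ift122 and Ift74. Ahi1, Bbs2 and Bbs9 lay just inside the threshold, with log2 fold changes of -0.45, -0.41 and -0.44. Wdr60 (-0.53), Bbs12 (-0.50), Bbs10 (-0.51) and Mkks (-0.23) lay just outside it. With the replicate number as a block Bbs9 was no longer past the threshold and Wdr60 and Bbs12 were, which made 32 lower genes. The count fell to 16 without VC tumour 3, to 19 without VC tumour 2 and to 20 without miR-21-KD tumour 4, and was 33 without miR-21-KD tumour 2. The share of all tested genes called lower moved alike in these fits, to 10.2%, 10.8%, 11.1% and 24.3%.

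**Figure D1:**
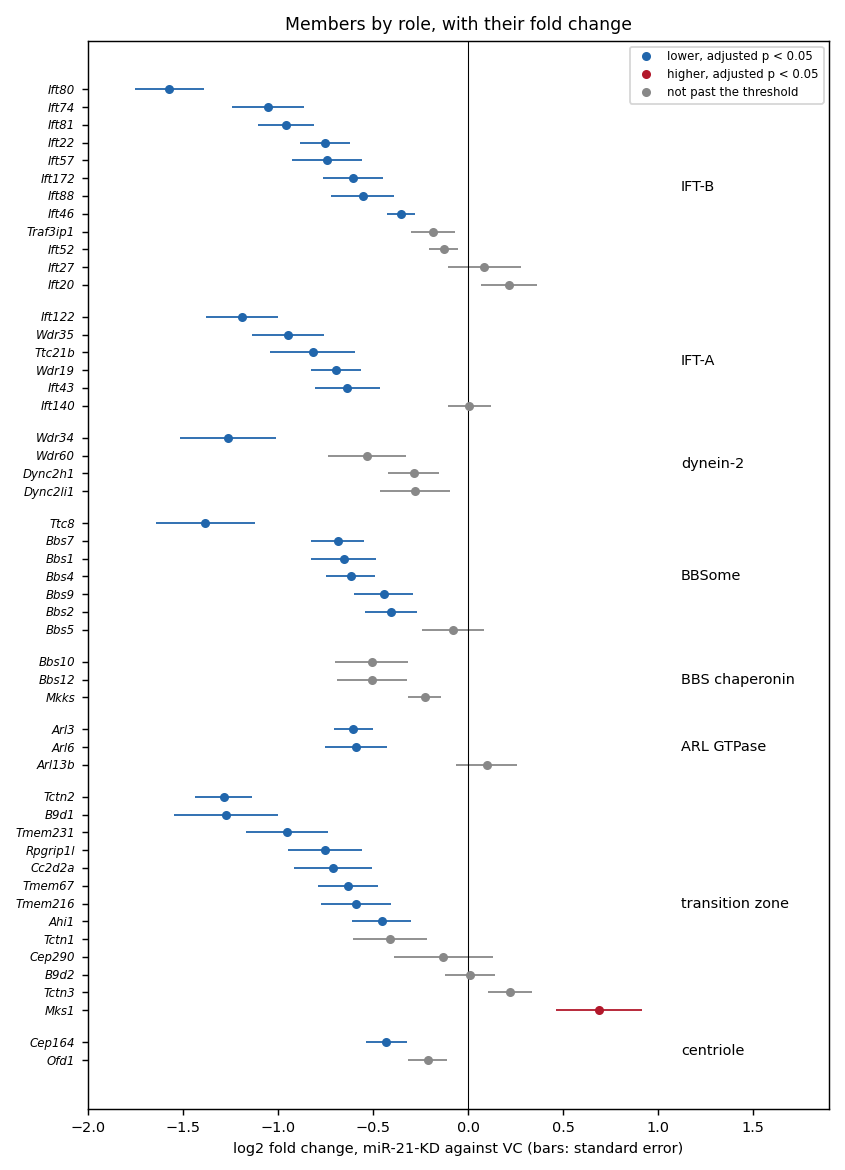
Log2 fold change of each of the 50 cilium genes, miR-21-KD against VC tumours (n = 4 each, horizontal axis), with its standard error as a bar, grouped by role and coloured by edgeR's adjusted p. Points reach from -1.57 for Ift80 to 0.69 for Mks1, and 31 lie to the left past the threshold.

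IFT-B, the complex of the outward trains, had 8 of its 12 genes lower (19.5% of all tested genes) and a median log2 fold change of -0.58. Without VC tumour 3, Ift57, Ift88 and Ift172 were no longer past the threshold (10.2% of all tested genes lower). Ift80, a peripheral subunit known from skeletal ciliopathies, had 60.2, 76.7, 67.0 and 49.2 CPM in VC tumours 1 to 4 and 18.5, 28.1, 19.4 and 19.1 CPM in miR-21-KD tumours 1 to 4. The highest miR-21-KD tumour, the second, was well below the lowest VC tumour, and the log2 fold change was -1.57 (standard error 0.18), the lowest of the list. Ift74 and Ift81 encode the pair of coiled-coil subunits that binds tubulin. Ift74 had 27.7, 31.2, 31.3 and 23.2 CPM in VC tumours against 10.3, 18.5, 13.5 and 12.4 CPM in miR-21-KD tumours, and Ift81 33.4, 36.8, 32.0 and 28.6 against 13.2, 20.5, 17.2 and 16.6 CPM. Neither gene overlapped between the groups, and their log2 fold changes were -1.05 (standard error 0.19) and -0.96 (standard error 0.15). Ift22 (-0.75), Ift57 (-0.74), Ift172 (-0.61) and Ift46 (-0.35) were also without overlap. Ift88, whose loss is the classical way to remove cilia in mice, was lower by -0.55 with a slight overlap, since miR-21-KD tumour 2 (17.4 CPM) reached VC tumour 4 (17.4 CPM). The remaining subunits did not move with them. Ift20, which also works at the Golgi, had 24.2, 25.8, 25.7 and 31.9 CPM in VC tumours against 31.6, 24.1, 32.4 and 36.9 CPM in miR-21-KD tumours. The groups overlapped, with a log2 fold change of 0.22 (standard error 0.15). The values were 0.09 for Ift27, a GTPase that links the train to the BBSome, -0.13 for Ift52 and -0.18 for Traf3ip1, all with overlapping groups.

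IFT-A, the complex of the returning trains, had 5 of 6 genes lower (19.5% of all tested genes) and a median of -0.76. Without VC tumour 2, VC tumour 3 or miR-21-KD tumour 4, Ift43 and Ttc21b were no longer past the threshold. Of all tested genes 10.8%, 10.2% and 11.1% were lower in these fits. Ift122, a core subunit, had 29.4, 48.7, 40.3 and 33.2 CPM in VC tumours against 14.8, 21.1, 16.4 and 14.1 CPM in miR-21-KD tumours. All 4 miR-21-KD values were under the lowest VC value, with a log2 fold change of -1.19 (standard error 0.19). Wdr35 (-0.95), Ttc21b (-0.82), Wdr19 (-0.69) and Ift43 (-0.63) followed without overlap. Ift140 stood apart from its partners. It had 22.9, 22.5, 25.0 and 20.5 CPM in VC tumours against 25.7, 19.9, 22.7 and 23.1 CPM in miR-21-KD tumours, values that interleave, and a log2 fold change of 0.01 (standard error 0.11).

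Dynein-2, the motor of the returning trains, had 1 of 4 genes lower (median -0.41), against 19.5% of all tested genes. Wdr34, an intermediate chain that holds the motor together, had 22.7, 36.8, 32.6 and 29.1 CPM in VC tumours against 7.43, 17.2, 13.3 and 12.6 CPM in miR-21-KD tumours, with no overlap and a log2 fold change of -1.26 (standard error 0.25). Its partner intermediate chain Wdr60 was below VC on average, but miR-21-KD tumour 2 (36.9 CPM) lay inside the VC range of 34.2 to 42.4 CPM. The heavy chain gene Dync2h1 had a log2 fold change of -0.29 (standard error 0.13). Dync2li1, the light intermediate chain, had 9.13, 8.44, 8.26 and 9.55 CPM in VC tumours against 9.44, 5.73, 6.40 and 7.58 CPM in miR-21-KD tumours, so only miR-21-KD tumour 1 was inside the VC range, and its log2 fold change was -0.28 (standard error 0.18).

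The BBSome, the coat whose loss causes Bardet-Biedl syndrome, had 6 of 7 subunit genes lower (19.5% of all tested genes), each without overlap, and a median of -0.62. Without VC tumour 2 or VC tumour 3, Bbs1, Bbs2 and Bbs9 were no longer past the threshold (10.8% and 10.2% of all tested genes lower). Ttc8, the BBS8 subunit, had 42.0, 56.3, 48.7 and 33.2 CPM in VC tumours against 12.8, 26.9, 15.2 and 14.3 CPM in miR-21-KD tumours. MiR-21-KD tumour 2 was the highest of its group and still below every VC tumour, and the log2 fold change was -1.38 (standard error 0.26). Bbs7 (-0.69), Bbs1 (-0.65), Bbs4 (-0.62), Bbs9 (-0.44) and Bbs2 (-0.41) followed. Bbs5, the subunit that binds phosphoinositides, had 11.3, 7.81, 10.6 and 10.9 CPM in VC tumours against 7.99, 10.6, 9.89 and 9.93 CPM in miR-21-KD tumours. These overlapped fully, with a log2 fold change of -0.08 (standard error 0.17).

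The chaperonins that fold BBSome subunits had 0 of 3 genes past the threshold, although all 3 had negative values (median -0.50). Bbs10 had 5.89, 7.01, 5.90 and 4.98 CPM in VC tumours against 5.08, 4.24, 3.97 and 3.44 CPM in miR-21-KD tumours, where miR-21-KD tumour 1 passed VC tumour 4. Mkks had 29.2, 29.7, 31.6 and 31.4 CPM in VC tumours against 24.2, 27.6, 25.9 and 26.3 CPM in miR-21-KD tumours. Its groups did not overlap, but the difference was small, with a log2 fold change of -0.23 (standard error 0.09).

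Among the ARL GTPases, Arl3, which releases lipidated cargo inside the cilium, varied little within groups. Its values were 34.0, 37.0, 34.7 and 34.2 CPM in VC tumours against 19.5, 24.9, 24.5 and 23.3 CPM in miR-21-KD tumours, with no overlap and a log2 fold change of -0.60 (standard error 0.10). Arl6, which recruits the BBSome to membranes, was lower by a similar amount (-0.59, standard error 0.16). Arl13b, the GTPase of the ciliary membrane that activates Arl3, had 31.3, 25.8, 28.2 and 21.7 CPM in VC tumours against 24.9, 33.6, 32.5 and 23.4 CPM in miR-21-KD tumours. The groups overlapped and the log2 fold change was 0.10 (standard error 0.16).

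**Figure D2:**
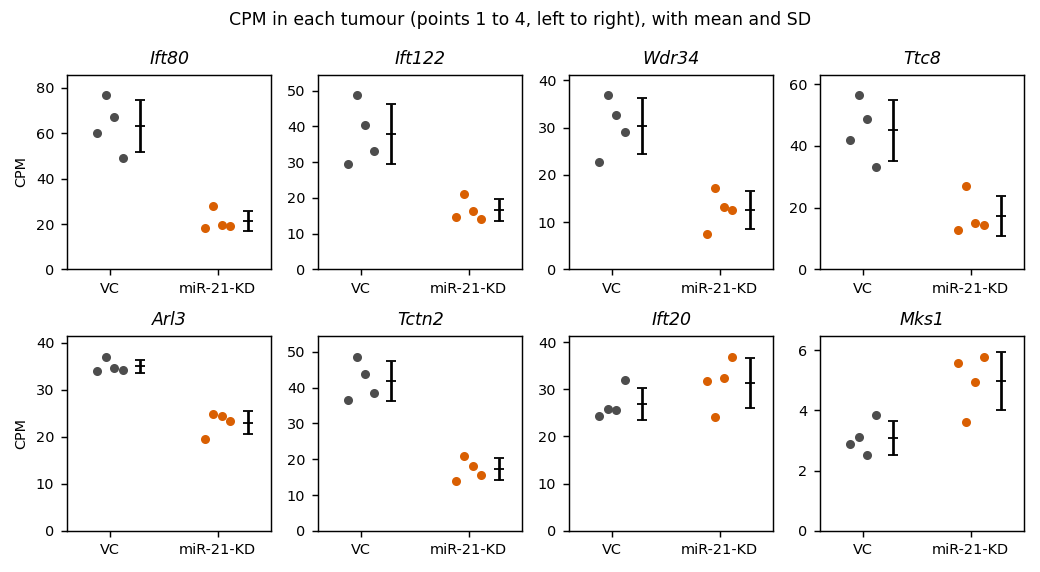
CPM in each tumour (points 1 to 4 from left to right) for 8 of the cilium genes, with the mean and SD of each group (n = 4) beside them and axes from 0. For Ift80, Ift122, Wdr34, Ttc8, Arl3 and Tctn2 the miR-21-KD points all lie below the VC points, whereas those of Ift20 and Mks1 overlap.

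The transition zone had 8 of 13 genes lower and 1 higher (19.5% and 19.6% of all tested genes) and a median of -0.59. Without VC tumour 3, Tmem67, Tmem216, Rpgrip1l, Cc2d2a and Ahi1 were no longer past the threshold (10.2% of all tested genes lower). Tctn2, a tectonic protein of the gate, had 36.5, 48.7, 43.9 and 38.4 CPM in VC tumours against 14.0, 21.0, 18.0 and 15.6 CPM in miR-21-KD tumours. The groups were far apart, with a log2 fold change of -1.29 (standard error 0.15). B9d1, a B9-domain protein of the same complex, had 15.2, 20.9, 19.4 and 16.6 CPM in VC tumours against 5.00, 12.1, 6.0 and 6.72 CPM in miR-21-KD tumours, again without overlap (-1.27, standard error 0.27). Tmem231 (-0.95), Rpgrip1l (-0.75), Cc2d2a (-0.71), Tmem67 (-0.63), Tmem216 (-0.59) and Ahi1 (-0.45) were lower too, and of these only Cc2d2a overlapped between groups, because VC tumour 4 (25.7 CPM) lay within the miR-21-KD range. Related genes of the gate went their own way. Tctn3 had 13.8, 12.6, 16.0 and 14.9 CPM in VC tumours against 16.9, 17.0, 17.2 and 15.6 CPM in miR-21-KD tumours (0.22, standard error 0.11), and B9d2 had a log2 fold change of 0.01 (standard error 0.13). Tctn1 (-0.41) and Cep290 (-0.13) were not past the threshold. For Cep290, VC tumour 4 (9.63 CPM) and miR-21-KD tumours 1 and 4 (10.0 and 10.1 CPM) were low and the others between 15.6 and 18.1 CPM, so its values did not follow the groups.

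Mks1, a gate gene mutated in Meckel syndrome, was the only member past the threshold upwards. It had 2.87, 3.11, 2.52 and 3.84 CPM in VC tumours against 5.57, 3.61, 4.94 and 5.78 CPM in miR-21-KD tumours, where miR-21-KD tumour 2 was below VC tumour 4. The log2 fold change was 0.69 (standard error 0.23), and the gene was past the threshold in 2 of the 8 fits that left out 1 tumour. Its level per kilobase was the lowest of the list in VC tumours (0.762 CPM per kilobase) but not in miR-21-KD tumours (1.23).

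Both genes of the mother centriole had every miR-21-KD tumour below every VC tumour, with small differences. Cep164, the distal appendage protein that starts ciliogenesis, had 44.6, 60.3, 51.9 and 46.4 CPM in VC tumours against 40.4, 38.0, 37.2 and 35.2 CPM in miR-21-KD tumours (-0.43, standard error 0.11). Ofd1, which caps centriole length, had 19.6, 18.9, 18.2 and 19.3 CPM in VC tumours against 17.2, 17.7, 14.9 and 15.8 CPM in miR-21-KD tumours (-0.21, standard error 0.10) and was not past the threshold.

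The level of the whole list was then compared between tumours. In VC tumours 1 to 4 the mean log2 CPM of the 50 genes was 4.28, 4.49, 4.43 and 4.25, and in miR-21-KD tumours 1 to 4 it was 3.68, 3.99, 3.86 and 3.76. No miR-21-KD tumour reached a VC tumour, and miR-21-KD tumour 2 came nearest. The median difference from the VC mean was -0.64, -0.38, -0.50 and -0.61 on the log2 scale in miR-21-KD tumours 1 to 4, while over all tested genes it stayed between -0.02 and 0.01. MiR-21-KD tumour 2 was the highest of its group in 31 of 50 genes and tumour 1 the lowest in 25. VC tumour 2 was the highest of its group in 29, and VC tumours 1 and 4 were lowest in 23 and 19. IFT-A spread most among miR-21-KD tumours, with a median difference of -1.15 in tumour 1 and -0.49 in tumour 2.

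**Figure D3:**
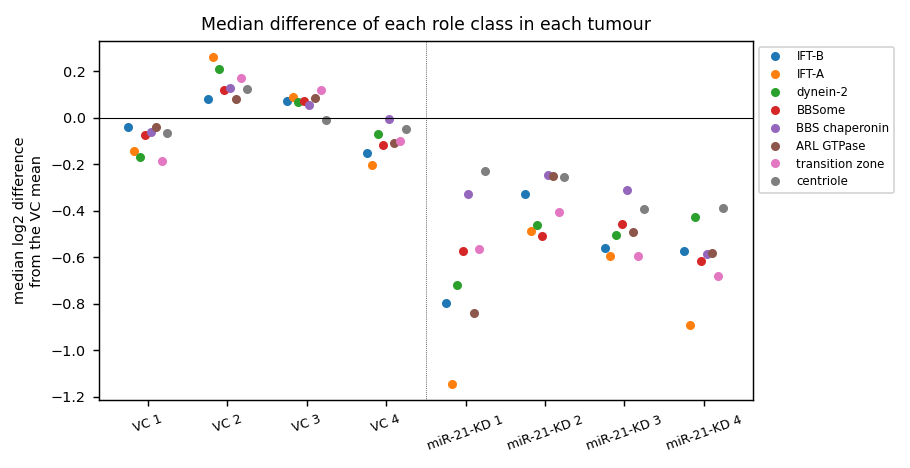
Median difference of each role class from its VC mean (log2 scale, vertical axis) in each of the 8 tumours, with 1 colour per class. All classes lie below 0 in all miR-21-KD tumours, from -0.23 for the centriole genes to -1.15 for IFT-A in tumour 1, and VC tumours lie between -0.20 and 0.26.

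Cell type and proliferation markers moved between the groups too. Beside the counts of single markers below, 19.5% of all tested genes were past the threshold downwards and 19.6% upwards. The summed CPM of 10 proliferation genes was 2164 ± 323 CPM in VC tumours against 971 ± 504 CPM in miR-21-KD tumours (SD over 4 tumours each, exact permutation p = 0.0571, adjusted p = 0.100 over 7 lists), and 9 of the 10 were past the threshold downwards. VC tumours held 1687 to 2394 CPM and miR-21-KD tumours 611 to 1714 CPM, with tumour 2 at 1714 CPM, so tumour 2 was nearest to VC here as well. Leukocyte markers summed to 3056 ± 922 and 5561 ± 1486 CPM (exact permutation p = 0.0571, adjusted p = 0.100), with 10 of 12 past the threshold upwards and ranges of 2246 to 4384 and 3735 to 7239 CPM. Fibroblast markers summed to 5809 ± 2224 and 15272 ± 5822 CPM and adipocyte markers to 228 ± 128 and 997 ± 440 CPM, each without overlap between groups (exact permutation p = 0.0286, the smallest that 4 against 4 tumours allow, adjusted p = 0.100). Of these, 7 of 9 fibroblast and 6 of 6 adipocyte genes were past the threshold upwards. Endothelial markers (ratio 1.25, 2 of 7 genes higher) and skeletal muscle markers (1.27, 4 of 5 genes too low to be tested, 1.91 to 5.57 CPM in all tumours) had exact permutation p of 0.171 and 0.686. These tests did not use the tumour numbers. Between same-numbered tumours the leukocyte, fibroblast, adipocyte and endothelial sums were higher in 4 of 4 pairs and the proliferation sum was lower in 4 of 4, each with an exact paired permutation p of 0.125, the smallest that 4 pairs allow.

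The labelled mammary carcinoma was checked by 11 epithelial markers, and all 11 were detected in every tumour. Their sum was 1987 ± 453 CPM in VC tumours against 1651 ± 406 CPM in miR-21-KD tumours (SD over 4 tumours each, exact permutation p = 0.314, adjusted p = 0.367), with ranges of 1317 to 2281 and 1122 to 2112 CPM. Krt8 and Krt18 carried most of this sum in every VC tumour. They did not in miR-21-KD tumour 1 (173 and 188 of 1122 CPM) or tumour 4 (366 and 399 of 1683 CPM). The other 9 markers together had 159 ± 86.2 CPM in VC tumours against 754 ± 279 CPM in miR-21-KD tumours. This split was made after the values were seen and was not tested. Single markers diverged, with 8 past the threshold upwards (19.6% of all tested genes), among them Krt19, and 1, Krt18, downwards (19.5%). In bulk RNA, fewer cells of a type and less RNA per cell cannot be told apart. The part of these marker changes in the values of the cilium genes was not tested.

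**Figure D4:**
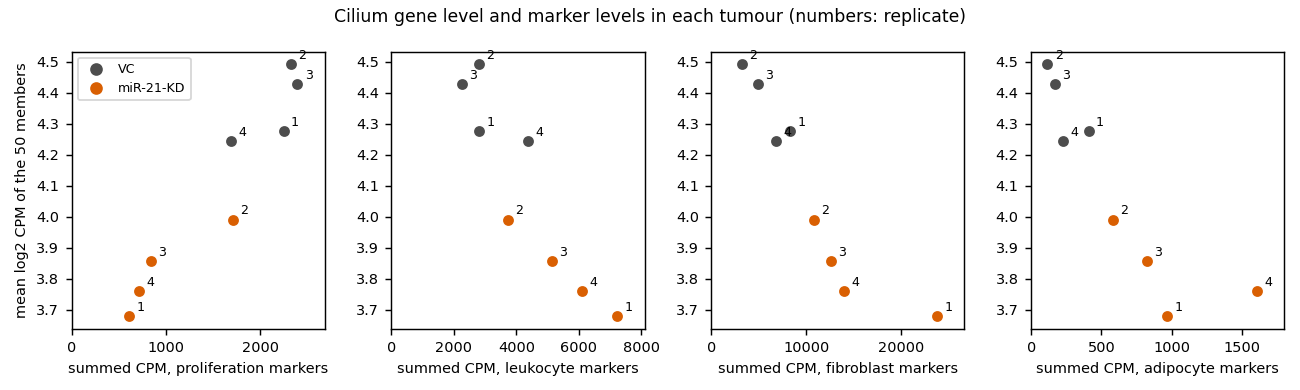
Mean log2 CPM of the 50 cilium genes (vertical axis) against the summed CPM of 4 marker lists (horizontal axes) in each tumour, numbered by replicate. MiR-21-KD tumour 2 has the highest cilium gene level of its group (3.99), the highest proliferation sum (1714 CPM) and the lowest leukocyte, fibroblast and adipocyte sums.

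Cilium genes outside the list were grouped in the same fit, and these carry adjusted p from edgeR. Of 89 such genes 70 were tested, and 30 of them were lower, 6 higher and 34 neither (42.9% lower, against 19.5% of all tested genes), with a median of -0.34. Of all tested genes 19.6% were higher, and both shares also stand beside the counts of the single lists below. Earlier results of these data were known when the lists were written, so the counts are a description as well. Kinesin-2, the motor of the outward trains, had 3 of 4 tested genes lower. Kifap3, the subunit that couples the motor to cargo, fell from 88.1 ± 10.9 to 53.0 ± 10.1 CPM (SD, n = 4 each, log2 fold change -0.73, adjusted p = 0.0094 from edgeR). Kif3a (-0.43) and Kif3c (-0.79) fell as well, and Kif3b had a log2 fold change of 0.19 (adjusted p = 0.0970 from edgeR).

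Of 11 further IFT, dynein-2 and BBS genes 5 were lower and 1 higher. Without VC tumour 2, VC tumour 3, miR-21-KD tumour 1 or miR-21-KD tumour 4, 3 were lower. Of all tested genes 10.8%, 10.2%, 13.7% and 11.1% were lower in these fits. Dynlrb1, a light chain shared with cytoplasmic dynein-1, fell from 158 ± 10.3 to 114 ± 8.12 CPM (SD, n = 4 each, log2 fold change -0.47, adjusted p = 0.00702 from edgeR). Ttc30a1, which encodes an IFT-B subunit, rose from 1.60 ± 0.547 to 3.65 ± 1.05 CPM (1.19, adjusted p = 0.0229 from edgeR), with 12 to 29 counts in VC tumours. It belongs to a family of near-identical paralogues, so its counts are uncertain. Its call was lost in 5 of the fits that left out 1 tumour. The NPHP module next to the transition zone had 2 of 7 genes lower and 1 higher, against 19.5% and 19.6% of all tested genes. Without VC tumour 2, VC tumour 3 or miR-21-KD tumour 4, 0 were lower (10.8%, 10.2% and 11.1% of all tested genes). Without VC tumour 1 or miR-21-KD tumour 1, 1 was lower (15.5% and 13.7%). Nphp4 rose from 0.606 ± 0.194 to 1.93 ± 0.457 CPM (1.66, adjusted p = 0.00853 from edgeR), but VC tumours held only 4 to 9 counts. It passed the filter on low counts through the miR-21-KD group alone, where it is high, and with at least 10 counts required in every tumour it was not tested.

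Genes that sort proteins to the ciliary membrane included 3 lower and 1 higher of 9, with 5 lower without miR-21-KD tumour 2 (24.3% of all tested genes). Inpp5e, the phosphatase that sets the lipids of that membrane, had 39.4, 43.5, 40.3 and 39.8 CPM in VC tumours against 24.8, 23.5, 26.5 and 21.7 CPM in miR-21-KD tumours. Its groups were tight and far apart (-0.76, standard error 0.09, adjusted p = 0.00501 from edgeR). Rab11a, a GTPase of recycling endosomes, had a small rise (0.22, adjusted p = 0.0443 from edgeR), which was not past the threshold with the replicate number as a block (adjusted p = 0.0644). Centriole and distal appendage genes had 4 of 11 lower and 0 higher. Cby1, whose protein helps vesicles dock at the mother centriole, had the smallest adjusted p of them and fell from 34.3 ± 5.76 to 17.4 ± 3.38 CPM (SD, n = 4 each, -0.98, adjusted p = 0.00679 from edgeR).

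Hedgehog genes, read out through the cilium, had 6 of 15 lower and 1 higher, with a median of -0.13. With the replicate number as a block 7 were lower and 3 higher, and without miR-21-KD tumour 2 the count of higher genes was 3 and without VC tumour 4 it was 2. Of all tested genes 22.1% were lower and 23.0% higher with the block, and 22.5% and 20.4% were higher without these tumours. The lower genes were Evc, Evc2, Smo, Cdon, Hhip and the ligand gene Dhh. Evc, which sits with Smo at the base of the cilium, had 23.0, 31.9, 27.1 and 20.9 CPM in VC tumours against 14.8, 11.9, 11.5 and 11.1 CPM in miR-21-KD tumours (-1.06, standard error 0.16, adjusted p = 0.00571 from edgeR). Smo, the signal transducer, fell from 67.8 ± 10.3 to 39.0 ± 5.26 CPM (SD, n = 4 each, -0.80, adjusted p = 0.00663 from edgeR). The pair of genes with the largest falls was picked out after its values were seen. Cdon, a co-receptor, had 93.4, 336, 140.5 and 316 CPM in VC tumours against 29.7, 48.7, 40.8 and 34.7 CPM in miR-21-KD tumours (-2.52, adjusted p = 0.0063 from edgeR). Hhip, a decoy that binds the ligands, had 127, 214, 167 and 136 CPM in VC tumours against 4.92, 54.9, 33.7 and 17.9 CPM in miR-21-KD tumours (-2.53, adjusted p = 0.0134 from edgeR). Neither overlapped between groups. Boc, another co-receptor, rose from 5.90 ± 2.29 to 17.4 ± 6.91 CPM (1.55, adjusted p = 0.0186 from edgeR), and it was not past the threshold without VC tumour 3 or without miR-21-KD tumour 4 (adjusted p = 0.0536 from edgeR). Hhip is also induced by the pathway, as are Gli1 and Ptch1, which did not pass and had log2 fold changes of 0.09 (standard error 0.40) and 0.37 (standard error 0.19), and the level of Gli1 was 1.44 ± 0.713 CPM in VC tumours.

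**Figure D5:**
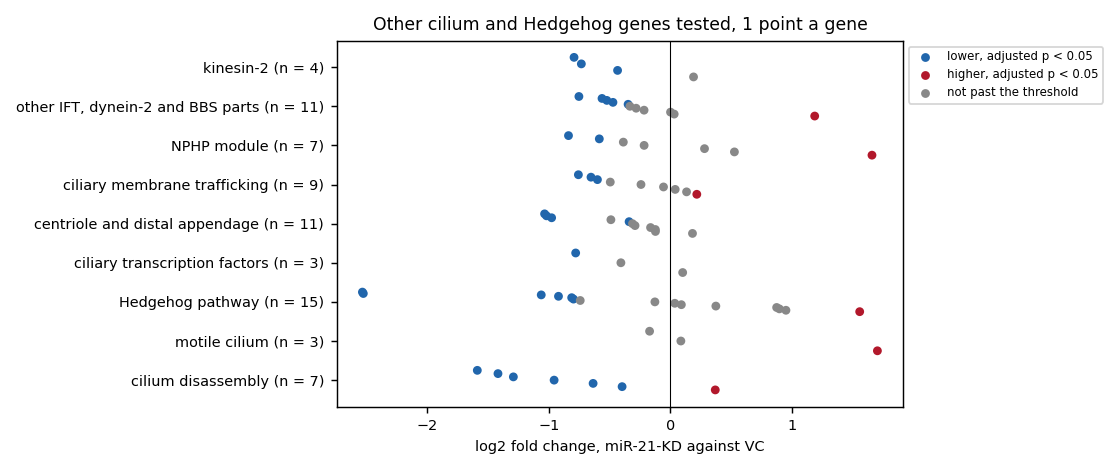
Log2 fold change, miR-21-KD against VC tumours, of the 70 tested cilium and Hedgehog genes that are not on the list of 50, with 1 point per gene and 1 row per group, coloured by edgeR's adjusted p. Of these, 30 are past the threshold downwards and 6 upwards, and the Hedgehog row reaches from -2.53 for Hhip to 1.55 for Boc.

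The exons of 8 members overlap those of another tested gene in GENCODE vM21, namely Bbs4, Bbs12, Cep290, Mkks, Ofd1, Tctn1, Tmem67 and Tmem216. The strand setting of the counting is not given in the sources used here, so reads of these genes and their neighbours may be mixed and their values are uncertain.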

How the data were processed

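Total RNA of whole tumours was sequenced, and the authors deposited a table of raw, unnormalized counts for 8 tumours, keyed by Entrez gene. The submitters' processing notes name Subread, featureCounts, edgeR, limma and the build mm10, without versions. The annotation and the strand setting are not given in the sources used here. The labels give day 14 for tumour recovery, and the text of the paper gives an earlier day.

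Symbols came from the GRCm38.p6 annotation of RefSeq and matched 25275 of 27179 identifiers. Low genes were removed by filterByExpr of edgeR 4.0.16, run in R 4.3.3 (minimum count 10, minimum total 15). The rest were scaled by TMM and compared by the robust quasi-likelihood test with Benjamini-Hochberg adjustment over all 14382 tested genes (threshold 0.05, no minimum fold). Log2 CPM used a prior count of 2. Standard errors came from the estimate and the F statistic. Sums of marker genes were compared by exact two-sided permutation tests.

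The alternatives were DESeq2 1.42.0, library size or upper-quartile scaling, no filter, a minimum of 10 counts per tumour, limma-voom (limma 3.58.1) with and without quality weights, a replicate block, a test above 1.5-fold, an adjusted p under 0.01 and each tumour left out. Tumour numbers 1 to 4 in the labels recur in both groups. Same-numbered tumours deviated together from their group means (correlations 0.272, 0.421, 0.175 and 0.376), which is over 0.1 for every pair, so values with the number as a block are given where they change a call. The correlations of other pairs were -0.393 to 0.393 (mean -0.105), no source states a pairing, and the fits reported have no block. Nothing says more of how the tumours were handled, and p-values measure the spread between these tumours.

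Members and lists were chosen with earlier results of these data known. Named genes are the lowest and highest fold change of each role class, members past the threshold upwards, and the smallest adjusted p in each direction of each other list. Other members and the genes Hhip, Cdon, Smo, Evc2, Dhh, Kif3a, Kif3b, Kif3c, Gli1, Ptch1, Aurka and Nek2 were named after their values were seen. So were Tulp3, Gli3, Gli2, Gas1, Cluap1, Sclt1 and Ttbk2, whose calls the block changed. The result of 1 gene that this rule names is not reported here.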

Additional observations from a re-analysis of the deposited data

Results flagged for a closer look

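In 182 groups of 4 tumours, 1 tumour stood far from the other 3 in 9, about the number that chance gives (1 in 20). MiR-21-KD tumour 2 was high for Ift80, with 28.1 CPM against 18.5 to 19.4 CPM, for Ttc8, with 26.9 CPM against 12.8 to 15.2 CPM, and for the mitotic kinase gene Nek2, with 54.1 CPM against 16.9 to 23.2 CPM. MiR-21-KD tumour 1 was high for Evc2, with 13.3 CPM against 11.0 to 11.3 CPM, and for the sum of skeletal muscle markers, with 5.57 CPM against 2.19 to 2.43 CPM. VC tumour 4 was low for the mean log2 CPM of the ARL GTPases (4.50 against 4.67 to 4.70), for Kif3a (74.5 CPM against 82.7 to 84.4 CPM) and for Ptch1 (5.31 CPM against 8.03 to 8.39 CPM). VC tumour 1 was low for Traf3ip1, with 18.9 CPM against 22.0 to 22.2 CPM.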

How the results depend on the processing

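The median log2 fold change of the 50 genes kept its sign in all alternatives, from -0.64 without miR-21-KD tumour 2 to -0.50 without miR-21-KD tumour 1. Of the 31 lower genes, 16 were called in all 16 alternatives at the same threshold, including all 8 that left out 1 tumour. The 31 became 3 for a change above 1.5-fold and 12 at an adjusted p under 0.01, and 16 to 33 when 1 tumour was left out, while the share of all tested genes called lower went from 19.5% to 1.45%, 5.26% and 10.2% to 24.3%. With DESeq2 the 31 became 34, where 21.6% of all tested genes were lower. The 1 higher gene became 0 with no filter, above 1.5-fold and at 0.01, 2 with quality weights, and 0 to 1 when 1 tumour was left out. Of the other cilium genes, 30 lower and 6 higher became 1 and 0 above 1.5-fold, 11 and 1 at 0.01, and 20 to 36 and 1 to 9 when 1 tumour was left out. With DESeq2 they became 34 and 7 (21.6% and 23.9% of all tested genes). With the replicate block the counts were 32 lower and 1 higher members and 35 lower and 7 higher other genes (22.1% lower and 23.0% higher of all tested genes), with a median of -0.58 for the members. Calls of single genes that the block changed are Tulp3 (-0.53, adjusted p = 0.0156), Gli3 (-0.80, adjusted p = 0.0127), Gli2 (0.90, adjusted p = 0.0417), Gas1 (0.93, adjusted p = 0.00881), Cluap1, Sclt1 and Ttbk2, all gained, and Rab11a, lost (edgeR). It changed no other call among the listed genes beside those given for the members.

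Values near 0 turned sign. Ift140 was -0.019 with library size scaling, -0.027 with no filter, -0.036 with quality weights and -0.052 to 0.062 when 1 tumour was left out. B9d2 was -0.016 with library size scaling, -0.022 with no filter and -0.028 to 0.074 when 1 tumour was left out. Bbs5 was -0.191 to 0.0014 and Gli1 -0.107 to 0.393 when 1 tumour was left out, and Gli1 was -0.27 with quality weights. The log2 difference of the skeletal muscle sum was 0.25, and -0.068 to 0.382 when 1 tumour was left out, with the negative value without miR-21-KD tumour 1. The cause of these moves was not tested. Standard errors of the members reached 0.27 on the log2 scale (B9d1), which limits what 4 tumours per group can show.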

Other observations

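Genes that take the cilium down are in part mitotic genes. Of 7 such genes 6 were lower and 1 was higher in miR-21-KD tumours, with a median log2 fold change of -0.96. Plk1, a mitotic kinase, had 67.2, 84.9, 87.4 and 60.2 CPM in VC tumours against 16.9, 47.5, 24.8 and 23.0 CPM in miR-21-KD tumours (-1.42, standard error 0.30, adjusted p = 0.0105 from edgeR). Aurka (-1.29) and Nek2 (-1.59), kinases of the same phase, fell as well, and miR-21-KD tumour 2 was the highest of its group for all 3. Nedd9, the scaffold that activates Aurka at the cilium, rose from 61.5 ± 7.28 to 79.3 ± 5.76 CPM (SD, n = 4 each, 0.37, adjusted p = 0.0219 from edgeR), and it was not past the threshold without VC tumour 2, VC tumour 3 or miR-21-KD tumour 3 (highest adjusted p = 0.0716 from edgeR). The count of lower genes was 3 without VC tumour 2, VC tumour 3 or miR-21-KD tumour 4. Of all tested genes 10.8%, 10.2% and 11.1% were lower in these fits.

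Among the transcription factors of ciliary genes, Rfx3, which reads the X-box, had 15.5, 19.1, 16.1 and 12.3 CPM in VC tumours against 9.04, 10.5, 9.24 and 7.97 CPM in miR-21-KD tumours, without overlap (-0.78, standard error 0.16, adjusted p = 0.0102 from edgeR). Of 7 factors 3 were tested, and 1 was lower and 0 were higher. Without VC tumour 4, 2 were lower (18.4% of all tested genes), and without miR-21-KD tumour 2, 1 was higher (22.5%). Of 15 motile cilium genes 3 had enough counts to be tested, and 1 of these was higher. It was Rsph9, a radial spoke gene, with 2 to 12 counts in VC tumours against 9 to 27 in miR-21-KD tumours (1.70, adjusted p = 0.0379 from edgeR), and the call was lost in 6 of the 8 fits that left out 1 tumour.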
